A study of Mus musculus with 2 samples.

Results

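Signals of 10 genes of the Kruppel-like factor (Klf) family, *Klf2*, *Klf3*, *Klf4*, *Klf5*, *Klf6*, *Klf9*, *Klf10*, *Klf12*, *Klf13* and *Klf15*, were compared between cells of the superficial zone (SFZ) of joint cartilage and costal chondrocytes (CC). The genes were taken by name, and every probe set annotated to 1 of them alone was used, which gave 10 of the 18193 genes named on the array and 35 probe sets. SFZ cells came from the femoral and tibial joint cartilage of ICR mice at postnatal day 4, and CC came from the ribs of ICR mice of the same age by collagenase digestion. Both were primary cells cultured in DMEM with 10% FBS, and the sources used here do not give the number of animals behind each sample. Biotinylated cRNA from 100 ng of total RNA was hybridized to Affymetrix mouse expression arrays, with 1 array per cell type. The differences therefore have no replicate check, no test could be run and p-values are absent. The study made this comparison to find transcription factors expressed more highly in SFZ cells than in CC.

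Klf proteins are transcription factors that bind GC-rich sites and CACCC boxes in DNA through zinc fingers at their C-terminal end. Their N-terminal parts differ, and with them the partners they recruit. *Klf3*, *Klf8* and *Klf12* encode repressors that bind CtBP, *Klf9*, *Klf10*, *Klf11*, *Klf13*, *Klf14* and *Klf16* encode factors that bind the corepressor Sin3A, and *Klf1*, *Klf2*, *Klf4*, *Klf5*, *Klf6* and *Klf7* encode factors that mostly recruit acetyltransferases. In joint tissue *Klf2* and *Klf4* are studied as regulators of matrix and inflammatory genes, and *Klf5* has been studied in cartilage matrix breakdown. Several members respond quickly to signals. *Klf2*, *Klf4*, *Klf6* and *Klf10* are induced early by serum, growth factors or flow, and *Klf9* and *Klf15* are induced by glucocorticoids.

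The values are MAS5 signals, linear intensities of a probe set, that is, of several short probes near the 3′ end of a transcript. Signals of different probe sets are not on one scale, so only the arrays are compared, probe set by probe set, apart from sums over marker lists. A background level was set at the 95th percentile of 84 probe sets for chemosensory receptors (odorant, vomeronasal and taste). It came to 28.2 for SFZ cells and 26.2 for CC. A gene was counted as higher in SFZ cells where any of its probe sets had an SFZ signal over 100 and an SFZ/CC ratio over 2, the thresholds of the study, and as higher in CC by the mirror image. Where both signals exceeded background, the log2 ratio (SFZ cells over CC) had a median of -0.15. Scaling the arrays to equal medians moved this to 0.03, and quantile normalization to 0.08. Of the labelled identities, the 11 chondrocyte markers were above background on both arrays, with *Col2a1*, the main cartilage collagen, at 8251 in SFZ cells and 9074 in CC. Only *Matn1* of these 11 passed, toward SFZ cells, at 9989 and 2692, a ratio of 3.71. *Prg4*, which encodes lubricin of the joint surface, was at 323 and 73.6. *Gdf5*, the other marker of the superficial zone used in the study, was at 93.1 and 74.2. By RT-qPCR the study reported a high level of *Gdf5* in SFZ cells and very little in CC. Of 8 superficial zone markers, 3 (*Vcam1*, *Thbs4* and *Clu*) were higher in CC. The *Clu* probe set with the highest mean signal did not pass, at 408 and 749. Among all named genes with a signal over 100 on at least 1 array, 12.5% passed toward CC and 2.77% toward SFZ cells.

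The Klf genes went both ways. *Klf4* and *Klf12* were higher in SFZ cells. *Klf2*, *Klf5* and *Klf10* were higher in CC. *Klf9* and *Klf15* lay toward SFZ cells by ratios under 2, *Klf3* and *Klf6* lay toward CC on most probe sets by less than 1.5-fold, and *Klf13* was near 1. The share of all named genes that passed was 1.37% toward SFZ cells and 6.17% toward CC. Every Klf gene studied here had a signal over 100 on at least 1 array, and among the 9001 genes of which that is true the shares were 2.77% and 12.5%. Against these shares stood 2 of the 10 Klf genes in the direction of SFZ cells and 3 of the 10 in the direction of CC. The scaling of the arrays matters for the second count. After scaling to equal medians only *Klf5* remained higher in CC, and after quantile normalization no Klf gene did. *Klf9* joined *Klf4* and *Klf12* as higher in SFZ cells under both scalings. The shares above are for the signals as deposited. They were not counted after scaling, so whether these changes are particular to the Klf genes was not tested. Of the 35 probe sets, 29 were above background on both arrays and 6 were at or under background on both.

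**Figure D1:**
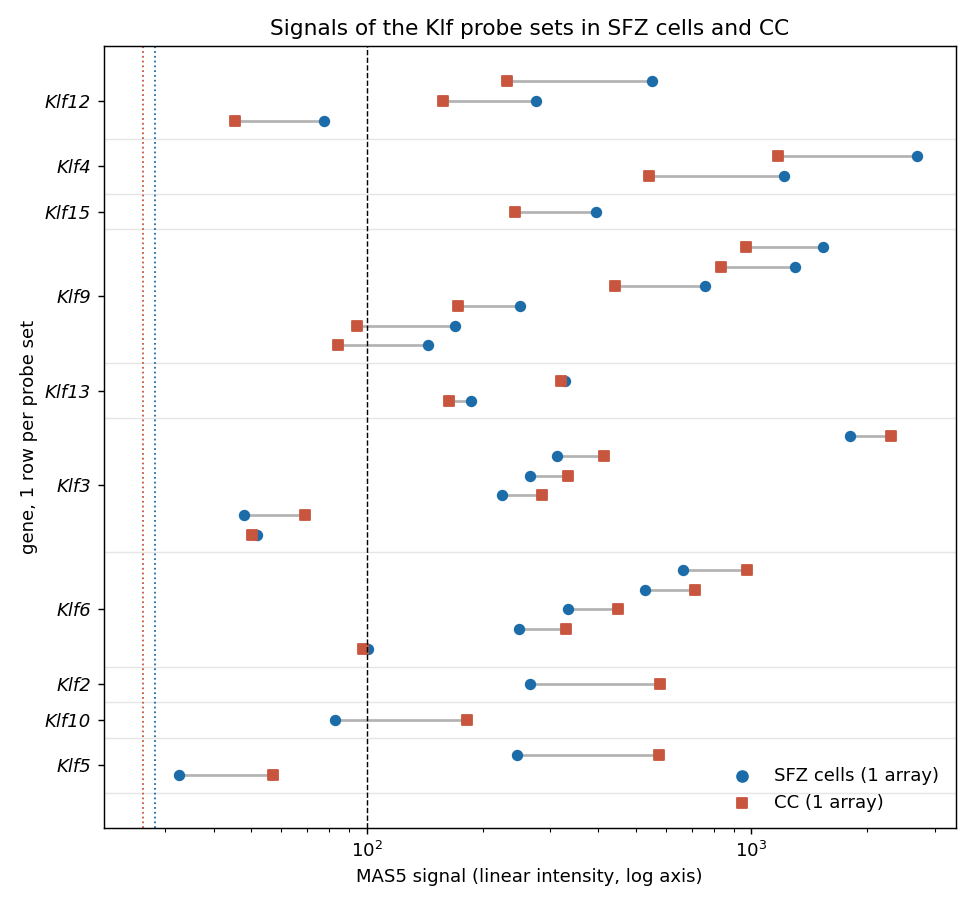
MAS5 signals, on a log axis, of the 29 Klf probe sets above background, with 1 SFZ array (circles) and 1 CC array (squares) and 1 row per probe set. Background levels (28.2 and 26.2) are dotted and the signal threshold of 100 is dashed. All plotted probe sets of *Klf12*, *Klf4*, *Klf15* and *Klf9* have the SFZ point on the right, and those of *Klf2*, *Klf10* and *Klf5* have the CC point on the right.

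*Klf4*, known as a reprogramming factor and as a regulator of epithelial and vascular differentiation, had close ratios on both of its probe sets. The first gave 2689 in SFZ cells against 1175 in CC, a ratio of 2.29. The second gave 1212 and 541, a ratio of 2.24. The log2 ratios of the probe sets differed by 0.03. By comparison, the pooled SD of log2 ratios between probe sets of the same gene was 0.31 over the 5033 genes with more than 1 probe set above background. Among probe sets over 100 on both arrays, like those of *Klf4*, it was 0.21 over 3059 genes, and the median range within a gene was 0.20. These are spreads between probe sets that read the same RNA on the same arrays, and they hold no variation between cultures or animals. *Klf4* stayed over a ratio of 2 on both probe sets under each scaling, with ratios from 2.11 with 64 added to both signals to 2.61 after scaling to equal medians.

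*Klf2*, the relative of *Klf4* best known from endothelial cells and T cells, went the other way. Its only probe set gave 266 in SFZ cells against 579 in CC, so it was 2.18-fold higher in CC. The fold fell to 1.91 with equal medians and to 1.85 with quantile normalization, under the threshold in both cases. The log2 ratio of *Klf4* exceeded that of *Klf2* by 2.32, a 4.99-fold difference in ratio. A constant scaling of an array cancels in such a difference. The pair was set side by side after the values were seen, so the difference is a description.

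The 250 bases before the annotated starts of *Klf2* and *Klf4* are shown because both genes are known targets of the kinase ERK5 and of MEF2 factors and yet they lay in opposite directions on these arrays. The sequences are from RefSeq annotation on GRCm38.p6, 5′ to 3′ on the strand of the gene, and end at the base before the start. Capitals mark a MEF2-like element (CTA and TAG separated by any 4 bases) or an E-box (CACGTG), the site of clock and Myc family proteins, searched on both strands. The window of *Klf2* is chr8:72318812-72319061 on the plus strand, and that of *Klf4* is chr4:55532476-55532725 on the minus strand.
Klf2: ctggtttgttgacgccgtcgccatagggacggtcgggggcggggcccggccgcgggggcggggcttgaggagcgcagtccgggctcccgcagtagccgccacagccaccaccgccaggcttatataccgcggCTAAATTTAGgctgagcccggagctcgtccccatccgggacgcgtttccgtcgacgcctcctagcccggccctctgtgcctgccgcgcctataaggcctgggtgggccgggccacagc
Klf4: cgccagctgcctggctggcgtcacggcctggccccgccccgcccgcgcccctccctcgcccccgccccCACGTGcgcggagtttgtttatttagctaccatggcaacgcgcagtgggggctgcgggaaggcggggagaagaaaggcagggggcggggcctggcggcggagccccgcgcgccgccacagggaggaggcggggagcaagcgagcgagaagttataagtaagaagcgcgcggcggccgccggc
The *Klf2* window holds a MEF2-like element that starts 118 bases before the annotated start, and 3.2% of 32851 RefSeq windows of this length hold one. The *Klf4* window has none by these letters and holds an E-box at 182 bases before the start, and 6.02% of all windows hold one. The GC box (GGGCGG, on either strand), a site for Klf and Sp proteins, had 4 matches in the *Klf4* window and 2 in the *Klf2* window, and 32.7% of all windows have at least 1. Windows were at hand for 8 of the 10 genes, all but *Klf5* and *Klf10*. The GC box was in 6 of the 8 and the CACCC box (CACCC, on either strand) in 6 of the 8, while 52.0% of all windows hold the latter. E-boxes were in the windows of *Klf4*, *Klf6* and *Klf15*, with 2 in that of *Klf15*, and 0.429% of all windows hold 2 or more. The start used for *Klf15* lies 1533 bases inside the annotated gene and that for *Klf12* lies 136095 bases inside it. The motifs were chosen after these sequences had been seen, so the matches and shares are descriptions, and other spellings of a site could match elsewhere. A match in such a window is not evidence of a bound site. Whether any of these sites bears on the ratios of *Klf2* and *Klf4* was not tested.

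*Klf5*, a factor of proliferating epithelium and smooth muscle, was higher in CC on its brightest probe set, at 246 in SFZ cells against 576 in CC, a 2.34-fold difference. A second probe set lay in the same direction at 32.5 and 57.0, or 1.75-fold, without reaching a signal of 100. The third was under background on both arrays, at 3.69 and 9.88. The probe set that passed has a suffix (_a_at) for probes that can bind several transcripts of a gene, and without such probe sets *Klf5* no longer passed. Nor did *Klf5* pass by the median of all its probe sets, which took in that under background. A median over those above background alone was not taken. With equal medians *Klf5* was 2.05-fold higher in CC, and with quantile normalization 1.99-fold.

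*Klf6*, a widely expressed early response gene, had 5 probe sets above background and none passed. On 4 of them it lay toward CC. The probe set with the highest mean signal gave 663 in SFZ cells and 976 in CC, which is 1.47-fold. The next gave 529 and 714. Others gave 334 and 450.2, and 248 and 329. The fifth, with a suffix (_x_at) for probes that can bind other genes, gave 101 and 98.05. These 5 log2 ratios spanned 0.59, and the 4 toward CC ran from -0.56 to -0.41. The SD of the 5 was 0.23, beside a pooled SD of 0.31 between probe sets of the same gene over all genes.

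Among the genes whose proteins bind CtBP, *Klf12* and *Klf3* differed. *Klf12*, first described as a repressor of the AP-2alpha gene, was toward SFZ cells on all 3 probe sets above background. The probe set that passed gave 550.3 in SFZ cells against 232 in CC, a ratio of 2.38. The other two gave 276 and 158, a ratio of 1.75, and 77.4 and 45.4, a ratio of 1.71. The probe set that passed carries a suffix (_s_at) for probes that can bind several transcripts, and without such probe sets *Klf12* no longer passed. Nor did *Klf12* pass by the median of all its probe sets, those under background included. After quantile normalization the 3 ratios were 2.80, 2.10 and 2.08. The remaining 2 probe sets were under background, at 16.2 and 19.4 and at 2.98 and 0.70, and give no ratio.

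*Klf3*, a repressor that acts in erythroid and fat cells, passed on none of its 7 probe sets. Its probe set with the highest mean signal gave 1801 in SFZ cells against 2307 in CC, a ratio of 0.781. The next 3 gave 312 and 413, 265 and 334, and 225 and 285, with ratios of 0.757, 0.794 and 0.790. These 4 probe sets thus gave ratios from 0.757 to 0.794. Of the dimmer probe sets above background, 1 gave 48.1 and 69.3 and another gave 51.75 and 50.3, and the last was under background at 13.96 and 4.44. The log2 ratio of *Klf12* was 1.61 above that of *Klf3*.

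Of the genes whose proteins bind Sin3A, *Klf9* lay toward SFZ cells, *Klf10* toward CC and *Klf13* toward neither. *Klf9*, a gene induced by glucocorticoids and thyroid hormone, was measured by 6 probe sets above background, and all 6 had a higher signal in SFZ cells. They gave 1537 and 968, 1299 and 834, 759 and 441, 251 and 172, 169.9 and 94.2, and 145 and 84.5, in SFZ cells and CC respectively. The ratios ran from 1.45 to 1.80, with an SD of 0.11 on the log2 scale, so none passed with the signals as deposited. At a ratio over 1.5 in place of 2, *Klf9* and *Klf15* also counted as higher in SFZ cells, which made 4 of the 10 Klf genes, while 3.56% of all named genes and 7.19% of those with a signal over 100 counted so. Toward CC the looser ratio left the count at 3 of the 10, while 12.3% of all named genes and 24.9% of those with a signal over 100 counted. Its highest ratio became 2.05 with equal medians and 2.22 with quantile normalization. A seventh probe set was under background at 18.6 and 13.0.

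*Klf10*, also called TIEG1, an early target of TGF-beta, gave 82.9 in SFZ cells and 182 in CC on its only probe set. It was 2.20-fold higher in CC, and 1.93-fold after scaling to equal medians. With 64 added to both signals the fold was 1.68. *Klf13*, a factor of T cells and heart, gave 328 and 321 on the probe set with the highest mean signal and 187 and 163 on another, ratios of 1.02 and 1.14. The third *Klf13* probe set was under background, at 3.73 and 3.19. The log2 ratio of *Klf9* exceeded that of *Klf10* by 1.81 and that of *Klf13* by 0.64.

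*Klf15*, a regulator of amino acid and glucose metabolism in muscle, liver and fat that stands apart from the groups above, gave 395 in SFZ cells and 243 in CC on its only probe set. The ratio of 1.63 did not pass. It became 1.86 with equal medians and 1.93 with quantile normalization, under 2 in both cases.

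**Figure D2:**
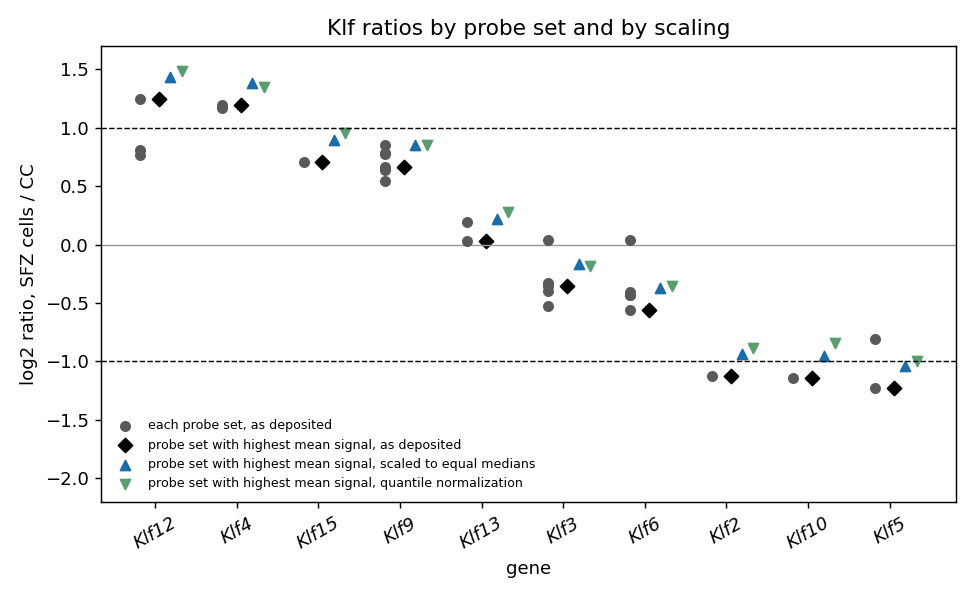
Log2 ratio, SFZ cells over CC, of each of the 10 Klf genes, ordered by ratio, with 1 array per cell type. Circles are all probe sets above background as deposited, and diamonds and triangles give the probe set with the highest mean signal as deposited and after each scaling. The dashed lines are ratios of 2 toward either cell type. Each scaling raised every ratio, and *Klf2* and *Klf10* moved inside the lower line under both.

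Over the 10 genes the median log2 ratio was -0.16, beside -0.18 over the 12466 named genes above background. The members were spread more widely around it. Their middle values ran from -0.98 to 0.69 (25th to 75th percentile), and those of all named genes ran from -0.50 to 0.11. Most genes on these arrays lay toward CC by a small amount, and the spread also reached further toward CC. For probe sets with a mean log2 signal from 8 to 9, the median was -0.19, the 5th percentile -1.23 and the 95th percentile 0.59. A given distance toward SFZ cells was thus less common than the same distance toward CC. Beside all probe sets of like mean signal, taken in steps of 1 on the log2 scale, 9 of the 29 Klf probe sets lay above the 95th percentile of log2 ratios and 0 lay under the 5th. The 9 were both probe sets of *Klf4*, 4 of *Klf9*, 2 of *Klf12* and that of *Klf15*. The folds of *Klf2*, *Klf5* and *Klf10* toward CC were of about the size of that of *Klf4* toward SFZ cells, but each lay within the 5th to 95th percentile. Probe sets of a gene share their RNA, so these 9 come from 4 genes.

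**Figure D3:**
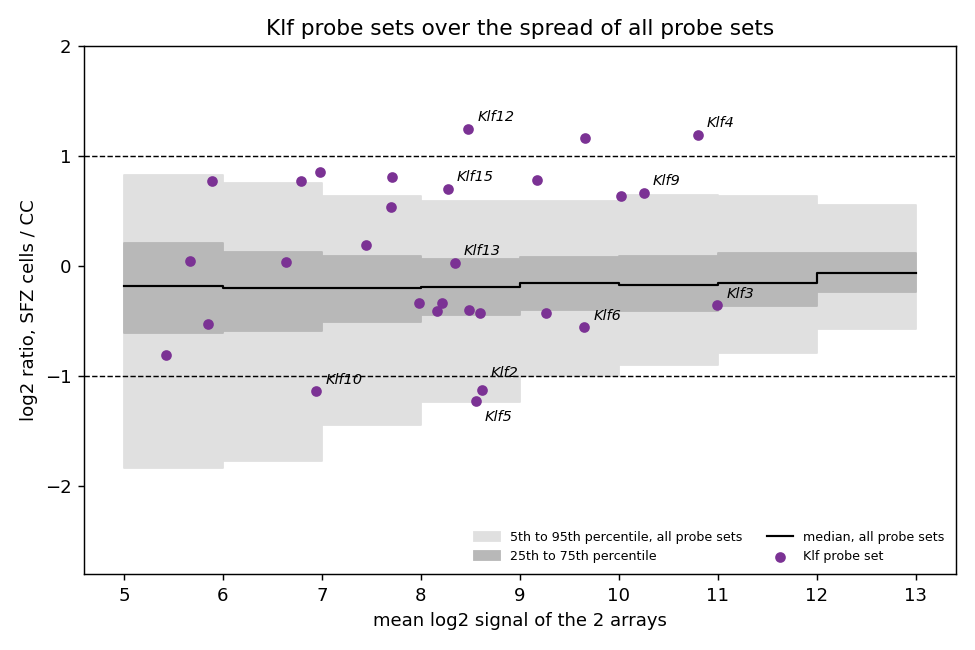
Log2 ratio of SFZ cells over CC against the mean log2 signal of the 2 arrays for the 29 Klf probe sets above background (points, named at the probe set with the highest mean signal). Grey steps give the 5th to 95th and the 25th to 75th percentiles and the line the median of all probe sets in each step of signal. *Klf4*, *Klf12*, *Klf15* and *Klf9* lie above the upper grey edge, and *Klf2*, *Klf5* and *Klf10* lie near or above the lower one.

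Of 7 other Klf genes listed, 6 were named on the array and *Klf14*, an imprinted gene, was the only one to pass, at 97.8 in SFZ cells and 233 in CC, or 2.38-fold toward CC. *Klf7* lay toward CC on all 4 of its probe sets, from 152 and 247 to 70.8 and 142. *Klf16* was at 145 and 158, *Klf11* at 100.4 and 90.6, and *Klf17* at 23.8 and 28.3, above background only on the CC array. *Klf1*, the erythroid factor, was under background on both arrays. Of 7 related Sp genes named on the array, 4 were above background and none passed. Beside these counts, 12.5% of all named genes with a signal over 100 on at least 1 array passed toward CC and 2.77% toward SFZ cells. Of the Sp genes above background, *Sp1* was at 631 and 779.5, *Sp3* at 1148 and 1137, *Sp4* at 75.9 and 61.4, and the osteoblast factor *Sp7* at 39.8 and 67.6.

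Genes of the partners and upstream regulators of the Klf proteins were counted by the same thresholds. Of 14 genes of cofactors and ubiquitin ligases, 1 passed, in CC. This was *Fbxw7*, which encodes an F-box protein, at 86.3 and 197 on 1 probe set but at 181 and 220 on the probe set with the highest mean signal. Of 9 genes of the ERK5 and MEF2 pathway, *Mef2c*, a factor of muscle and of hypertrophic chondrocytes, was the only one to pass, in CC. It did so on 5 probe sets by 3.24-fold to 5.29-fold, with 98.6 in SFZ cells and 351 in CC on the probe set with the highest mean signal. The share of genes higher in CC was 6.17% over all named genes and 12.5% over those with a signal over 100. The medians of these lists were -0.30 and 0.12, beside -0.18 over all named genes.

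Lists of genes tied to inducers of *Klf9*, *Klf15* and *Klf10* gave 2 that passed. Of 8 glucocorticoid response genes 2 passed, both in CC, while 12.5% of all named genes with a signal over 100 were higher in CC. These were *Cebpd*, a bZIP factor gene, at 659.8 and 1956, and *Fkbp5*, a cochaperone gene of the glucocorticoid receptor, at 189 and 392. None of 15 circadian clock genes passed. Of these, *Nr1d2* was at 773 and 821 and *Bhlhe40* at 654 and 365, and the list had a median log2 ratio of 0.25. None of 11 genes listed for the early TGF-beta response passed. That list holds receptors and Smads as well as induced genes, so it is not a readout of the response alone. *Tgfbi* was at 2935 and 2704 and the receptor gene *Tgfbr2* at 2375 and 3206.

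Of 13 named genes reported as Klf targets, 2 passed in SFZ cells and 2 in CC. *Prg4*, with a ratio of 4.39, and *Bcat2*, a gene of branched-chain amino acid breakdown and a target of *Klf15*, at 134 and 66.3, were higher in SFZ cells. *Ccnd1*, encoding the G1 cyclin D1, was at 293 and 1116. *S1pr1*, a target of *Klf2* in T cells, was at 121 in CC and under background in SFZ cells, and so at least 4.30-fold higher in CC. Among listed targets that did not pass, *Slc2a4* was at 95.6 in CC and under background in SFZ cells, at least 3.39-fold toward CC. *Thbd* was at 356 and 352, *Nos3* at 46.8 and 35.1, and *Prodh* at 27.7 and 30.1. Whether any listed target follows a Klf gene in these cells was not tested. This list had a median log2 ratio of -0.01. Of 14 immediate early genes, 1 passed in SFZ cells and 6 in CC, with a median log2 ratio of -1.18. Beside the counts of both lists, 2.77% of all named genes with a signal over 100 passed in SFZ cells and 12.5% in CC. Those in CC included *Nr4a1* at 71.1 and 459, *Egr1* at 604 and 3092, and *Dusp1* at 1128 and 2737. *Atf3* was at 1213 and 280.1, in the direction of *Klf4*, while *Klf2* and *Klf10* lay in the direction of the 6.

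**Figure D4:**
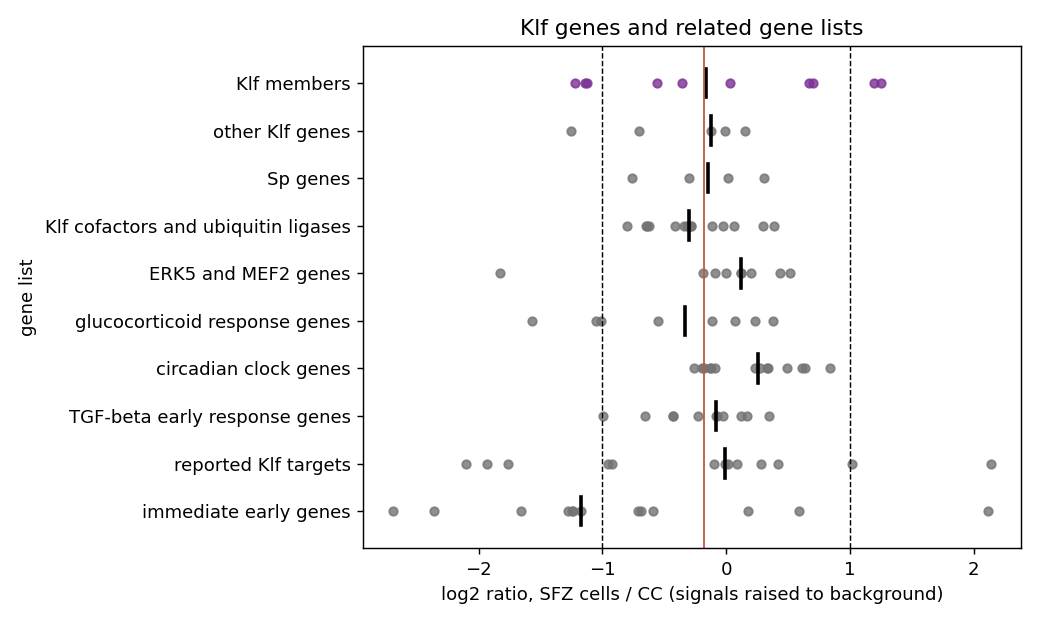
Log2 ratio, SFZ cells over CC, in the 10 Klf genes and in related lists, 1 point per gene above background on at least 1 array, on the probe set with the highest mean signal and with signals raised to the background level. Black bars are medians, the red line is the median of all named genes, -0.18, and dashed lines mark a ratio of 2. The Klf genes lie on both sides, and the median of the immediate early genes, -1.18, is the lowest of these lists.

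Markers of macrophages, skeletal muscle, adipocytes, smooth muscle and fibroblasts passed toward CC. None of the endothelial or epithelial markers had a signal over 100 on either array, so none could pass whatever its ratio. The median log2 ratios of these lists were -0.62 (endothelial) and -0.40 (epithelial), beside -0.18 over all named genes. Among all named genes with a signal over 100, 12.5% passed toward CC. Sums over a marker list add signals that are not on one scale, those under background included, and are rough descriptions. The signals of 10 endothelial genes, from cells in which *Klf2* is well known, summed to 166 in SFZ cells and 362 in CC. Of these 10 genes 7 were above background on at least 1 array, with *Egfl7* at 47.9 and 87.0, *Esam* at 43.5 and 47.3, *Cdh5* at 13.5 and 46.8, and *Emcn* at 22.5 and 43.4. *Cldn5*, at 57.6 in CC, was under background in SFZ cells, a difference of at least 2.04-fold toward CC. *Pecam1* was at 3.02 and 26.4, and *Vwf*, *Tek* and *Tie1* were under background on both arrays. Of 10 macrophage genes 5 were higher in CC, with sums of 477 and 2217, and *Lyz2* was at 232 and 1432. Of 11 skeletal muscle genes 9 were higher in CC, with sums of 241 and 28296, *Actc1* at 28.7 and 8228, whereas *Myf5* and *Pax7* did not exceed background. Of 6 named adipocyte genes 5 were higher in CC, with sums of 1041 and 11454, and *Fabp4* was at 42.7 and 6039. Of 7 smooth muscle genes *Acta2* and *Tagln* were higher in CC, and *Acta2* was at 822 and 5343. Of 9 fibroblast genes 7 were higher in CC, with sums of 11566 and 23358. The 7 epithelial genes had sums of 250.3 and 255, and 5 of them were above background on at least 1 array. *Epcam* was at 84.0 and 87.3 and *Krt8* at 31.6 and 51.5, while *Krt19*, at 63.9 in SFZ cells, was under background in CC, a difference of at least 2.44-fold toward SFZ cells. *Cdh1* and *Krt14* were under background on both arrays. The part of these cells in the ratios of *Klf2*, *Klf5*, *Klf10* and the other Klf genes was not tested. In such samples, fewer cells of a type and less RNA per cell cannot be told apart, and neither can the zone of cartilage and the position of the joint or rib in the body.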

How the data were processed

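Signals were used as the authors deposited them, as MAS5 intensity values on a linear scale for 1 SFZ array and 1 CC array. MAS5 is the software named in the submitters' processing notes. The sources used here do not give its version, the target it scaled to or its detection calls. MAS5 scales each array on its own, so an unequal scaling would shift all ratios together. Of 45037 probe sets, after 64 controls were left out, 34945 had 1 gene symbol in the platform annotation. All 10 Klf symbols matched RefSeq by Entrez identifier.

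Genes were counted by the thresholds of the study. Lists were read by counts, in which any probe set of a gene could pass, and by medians over the probe set of each gene with the highest mean signal, with signals at or under background raised to that level. The Klf genes, lists and thresholds were chosen with earlier results of these data known, and the motifs were chosen after the promoter sequences had been seen. The rule for named genes took all Klf probe sets, other Klf and Sp genes above background, and up to 4 genes that passed from each other list, or the 2 with the highest signal where none passed. *Col2a1*, *Gdf5*, *Slc2a4*, *Thbd*, *Nos3*, *Prodh*, *Pecam1*, *Cdh5*, *Emcn*, *Cldn5*, *Krt19* and the marker genes under background were named outside that rule, after their values were seen. With 1 array per group the number of arrays limits the precision. Counting was tested on simulated data. Alternatives were quantile normalization, scaling to equal medians, raising low signals to background, adding 64 to all signals, other thresholds and other rules for probe sets. Python 3.11.15, numpy 2.4.6, pandas 2.3.3 and matplotlib 3.10.9 were used.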

Additional observations from a re-analysis of the deposited data

How the results depend on the processing

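The 2 Klf genes higher in SFZ cells, *Klf4* and *Klf12*, became 4 at a ratio over 1.5, with *Klf9* and *Klf15*, and 0 at a ratio over 3. Only *Klf4* counted, giving 1, without probe sets that can bind several transcripts, when probe sets of a gene were combined by their median, and where every probe set above background had to pass. The median took in probe sets under background. The 3 genes higher in CC became 1 after scaling to equal medians and 1 with 64 added to both signals (*Klf5* in each case), and 0 after quantile normalization or at a ratio over 3. *Klf5* was instead the one lost, leaving 2 (*Klf2* and *Klf10*), under the same 3 rules for probe sets that left *Klf4* alone, and *Klf10* was lost at a signal over 200. *Klf2* and *Klf10* have 1 probe set each, not of the kind that can bind several transcripts. The 3 rules for probe sets therefore could not change their calls. Stricter thresholds lower counts by construction. Of these alternatives, only the ratio over 1.5 had its share over all named genes counted. Equal medians multiply every ratio by the same factor, while quantile normalization moves ratios by unequal amounts. The median log2 ratio of -0.16 lay between -0.16 and 0.045 under the 6 alternatives run on it, and was above 0 under both scalings, at 0.025 with equal medians and 0.045 with quantile normalization. No paired analysis was possible because each cell type has 1 array. Probe sets under background, 6 of 35, give no ratio.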
